A study of Mus musculus with 5 samples.

Results

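C-type lectin receptors are surface proteins with which dendritic cells recognise sugars, glycolipids and debris of dead cells. The chromatin of 10 of their genes was examined: Clec4d, Clec4e, Clec4n, Clec5a, Clec7a, Clec9a, Clec10a, Clec12a, Cd209a and Mgl2. A region belonged to a gene when the authors' list assigned it to that gene or when it lay within 5 kb of a transcription start that the lists give for it. Of the 10 genes, 9 had a listed start, among 13923 protein-coding genes with one, and Cd209a, which encodes a mouse relative of human DC-SIGN, had neither a start nor a region in any list. Clec4d is listed under its older name Mcl, and 1 region of Clec5a under Mdl1. The lists give a start only for genes to which at least 1 of them assigns a region. Shares of all genes below refer to these 13923 genes and are not rates over the whole genome.

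ChIP-seq, in which DNA bound by an antibody's target is sequenced, mapped the transcription factor STAT3 and H3K4me3, the histone mark found at active promoters. The cells were dendritic cells derived in culture from bone marrow of female C57BL/6 mice at 10 weeks of age. They grew for 7 days in 10 ng/mL of GM-CSF plus 10 ng/mL of IL-4 and were then sorted magnetically for CD11c, with a labelled purity of 95%. The cells then had 12 hours of SAHA (vorinostat, an inhibitor of histone deacetylases, at a dose labelled 500 nm) or of diluent. The 5 libraries were STAT3 in SAHA, H3K4me3 in SAHA, STAT3 in diluent, H3K4me3 in diluent and an IgG control in diluent, 1 per group, and the sources used here do not give the number of mice. No difference between SAHA and diluent therefore has a replicate check or a p-value, and intervals below cover counting error only.

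Several of these receptors signal like antigen receptors. Clec4n (Dectin-2), Clec4d (MCL) and Clec4e (Mincle) pair with the adaptor Fcer1g, Clec5a (MDL-1) pairs with Tyrobp, and Clec7a (Dectin-1, the receptor for fungal beta-glucan) and Clec9a (DNGR-1, which binds actin exposed by dead cells) carry their own activating motif. All of these recruit the kinase Syk, and Clec7a, Clec4n and Clec4e pass the signal on through Card9 to NF-kB. Clec12a (MICL) instead carries an inhibitory motif that recruits phosphatases. Clec10a, Mgl2 and Cd209a take up glycans, and Clec10a and Mgl2 mark alternatively activated myeloid cells.

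The libraries held 19504014 to 27920130 reads of 38 bases, and 17810183 to 25013431 tags after the authors' duplicate filter. In both ranges STAT3 in SAHA was the lowest and STAT3 in diluent the highest, so the STAT3 libraries compared below differ in depth. Both H3K4me3 libraries came from 1 flow cell, per the file headers. All 9 dendritic cell markers examined, among them Itgax, Flt3, Zbtb46 and Cd74, carried H3K4me3 in SAHA and in diluent, as did 91.7% of all genes in SAHA and 90.2% in diluent, so this count lies near the background. H3K4me3 also marked all 6 macrophage and monocyte markers, 3 of 5 T cell, 3 of 5 granulocyte and mast cell, 2 of 3 NK cell and 0 of 4 B cell markers, in SAHA and in diluent alike. Of these, Cd3e and Cd3g (T cells), Mpo (granulocytes), Ncr1 (NK cells) and Cd79a and Ms4a1 (B cells) had no listed start and no region. The share of other cells in the preparation was not tested.

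The promoters of these genes are poor in CpG. RefSeq promoter sequences (GRCm38.p6, 250 bases before the start to 50 after it) were matched for 8 of the 10 genes. They held a median of 3 CpG pairs, from 0 at Clec4d to 8 at Mgl2, against a median of 13 over 21263 promoters of protein-coding genes, of which 41.1% held 8 or fewer. The 5 shown belong to the gene with the largest tag ratio (Clec4e), the widest diluent region (Clec4d), a region that reached far into the gene in SAHA (Clec7a), fewer tags in SAHA (Clec12a) and a region in SAHA alone (Mgl2). Capitals mark CpG pairs and, in Clec12a, the match TGAATCA to the AP-1 motif.
Clec4e, chr6:123289822-123290121, minus strand: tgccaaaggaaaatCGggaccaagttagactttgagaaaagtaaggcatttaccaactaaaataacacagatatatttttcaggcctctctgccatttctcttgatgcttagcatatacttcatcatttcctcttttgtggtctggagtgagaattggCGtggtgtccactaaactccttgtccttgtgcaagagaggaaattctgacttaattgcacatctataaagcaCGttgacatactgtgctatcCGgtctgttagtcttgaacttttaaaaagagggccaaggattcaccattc
Clec4d, chr6:123261857-123262156, plus strand: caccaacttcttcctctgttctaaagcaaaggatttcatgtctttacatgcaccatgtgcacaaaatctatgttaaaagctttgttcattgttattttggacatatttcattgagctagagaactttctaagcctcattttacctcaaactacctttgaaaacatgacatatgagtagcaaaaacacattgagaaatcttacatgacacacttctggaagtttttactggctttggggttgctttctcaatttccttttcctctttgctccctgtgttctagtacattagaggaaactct
Clec7a, chr6:129472730-129473029, minus strand: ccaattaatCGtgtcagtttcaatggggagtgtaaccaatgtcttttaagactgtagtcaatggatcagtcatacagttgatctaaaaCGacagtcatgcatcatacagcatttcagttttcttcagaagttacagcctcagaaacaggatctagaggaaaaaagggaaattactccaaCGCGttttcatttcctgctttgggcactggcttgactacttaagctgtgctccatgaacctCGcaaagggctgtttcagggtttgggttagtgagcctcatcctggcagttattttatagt
Clec12a, chr6:129349994-129350293, plus strand: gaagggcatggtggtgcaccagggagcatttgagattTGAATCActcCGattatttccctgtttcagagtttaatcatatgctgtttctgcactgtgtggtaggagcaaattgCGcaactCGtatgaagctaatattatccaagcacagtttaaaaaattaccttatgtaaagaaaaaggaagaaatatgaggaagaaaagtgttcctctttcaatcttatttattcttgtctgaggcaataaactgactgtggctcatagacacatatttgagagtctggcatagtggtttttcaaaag
Mgl2, chr11:70130107-70130406, plus strand: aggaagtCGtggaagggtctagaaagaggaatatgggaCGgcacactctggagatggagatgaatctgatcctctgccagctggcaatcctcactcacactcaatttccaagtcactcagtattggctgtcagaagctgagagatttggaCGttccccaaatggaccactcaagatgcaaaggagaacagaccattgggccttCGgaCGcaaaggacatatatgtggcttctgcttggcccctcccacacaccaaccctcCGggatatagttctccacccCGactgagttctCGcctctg

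The 8 promoters were searched on both strands for TTCNNNGAA (STAT factors), GAGGAAGT (PU.1), a pair of NF-kB consensus motifs and TGANTCA (AP-1). Of all 32851 promoters in the table, 8.3% held the STAT letters, 3.2% the PU.1 letters, 0.155% and 0.0883% the NF-kB motifs and 7.81% the AP-1 letters. Among the receptor genes the search found 1 match, the AP-1 letters in Clec12a from position -213 to -207 relative to the start, and it overlapped no other motif. The STAT letters were found in none of the 8 windows.

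H3K4me3 marked nearly all of the listed receptor genes in either condition. In the lists against IgG, 9 of the 9 genes with a start carried a region in SAHA and 8 in diluent, and Mgl2 was the gene without one in diluent. Of all 13923 genes with a start, 91.7% carried a region in SAHA and 90.2% in diluent by the same rule, so these counts lie near the background. Genes without a region in any list, such as Cd209a, are left out of both the counts and the background. Within 5 kb of a start the counts were again 9 in SAHA and 8 in diluent, against 85.6% of all genes in SAHA and 84.5% in diluent. The genes held 14 regions in SAHA and 13 in diluent. Tags in the called regions also differed between the libraries, as the plot of tags by gene shows.

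**Figure D1:**
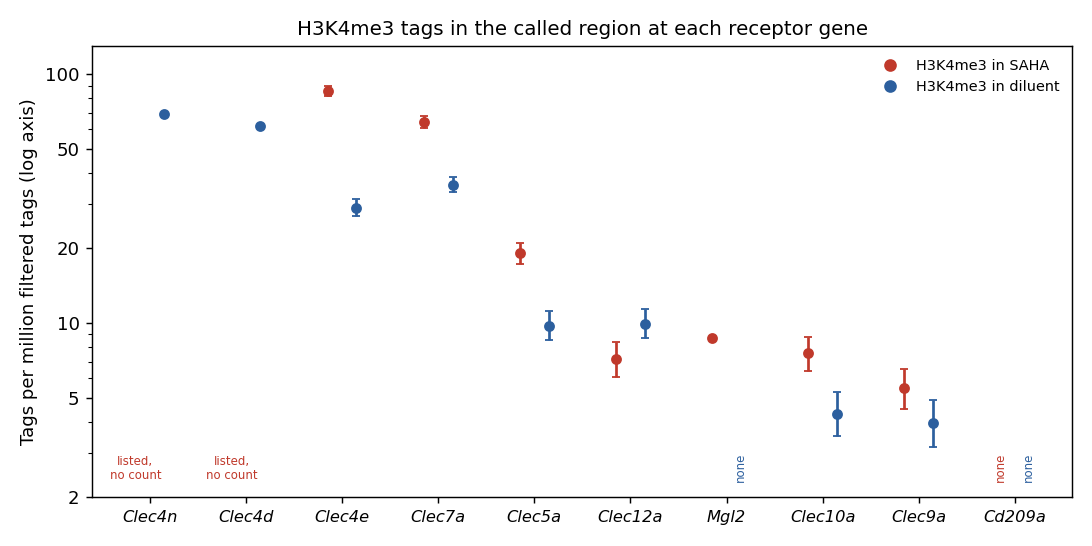
H3K4me3 tags in the called region of each receptor gene, scaled to 1000000 filtered tags of the library (log axis), in SAHA (red) and diluent (blue), 1 library each; bars are exact Poisson 95% intervals, drawn for the 6 genes with a region counted in both libraries. At Clec9a the region nearest the start is plotted; Clec4e stood at 85.5 in SAHA and 29.1 in diluent, and Clec12a is the gene with the lower value in SAHA.

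The 3 receptors that pair with Fcer1g are neighbours on chromosome 6 (mm9), with starts spanning 60.0 kb, and Clec4n and Clec4d carried some of the widest H3K4me3 regions of either library. Around them, from 10 kb before the first start to 10 kb after the last, H3K4me3 regions covered 25786 bp in SAHA and 17622 bp in diluent, with 5 regions in each and 0 IgG regions. At Clec4e, which encodes the receptor for the mycobacterial cord factor, the region over the start was chr6:123235165-123240806 in SAHA and chr6:123237555-123240256 in diluent. It held 1832 tags over 5642 bp in SAHA and 653 tags over 2702 bp in diluent. Scaled to filtered tags, the log2 ratio of SAHA over diluent was 1.55 (95% interval 1.42 to 1.68), or 2.94-fold. Per kb of region the density was 325 tags in SAHA and 242 in diluent, a log2 ratio of 0.49 (0.36 to 0.62), so most of the difference in tags went with the difference in called width. In bulk chromatin, more cells with the mark and more of the mark per cell cannot be told apart.

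Of all 17704 H3K4me3 regions paired 1 to 1 between the libraries, 4.96% had at least 2-fold more tags in SAHA and 1.01% at least 2-fold fewer. The 6 receptor genes with such a pair included 1 past 2-fold, Clec4e, and 1.25% of all pairs had a ratio as high as that of Clec4e. In SAHA 2 further regions followed inside the gene, 816 and 910 bp wide, at 5.90 and 4.80 kb from the start. Neither overlapped a diluent region, and together the SAHA regions at Clec4e covered 7368 bp, against 2702 bp in diluent.

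At Clec4n, the receptor for fungal mannans, the region over the start was 9169 bp wide in SAHA and 5893 bp in diluent. At Clec4d, whose product binds the same cord factor, it was 9249 bp in SAHA and 7811 bp in diluent. These were wide for their lists: 0.711% of SAHA regions and 2.07% of diluent regions were wider than the one at Clec4n, and 0.673% of SAHA regions and 0.521% of diluent regions were wider than the one at Clec4d. In diluent the regions held 1547 tags at Clec4n and 1386 at Clec4d, more than at any other receptor gene in that library, with fold enrichments over the local background of 5.58 and 4.21. The SAHA table of regions called without a control holds no row for either gene, so no tag ratio exists for them. Such gaps were common at this width: of the 199 SAHA regions of 9 kb or more in the list against IgG, 7.04% had a tag count, against 97.1% of those from 5 to 9 kb.

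Clec4n also had a small diluent H3K4me3 region (521 bp) that ended 1599 bp upstream of the start, which no SAHA region overlapped, and 1 of 695 bp downstream that lies within the wider SAHA region. At Clec5a, whose product responds to dengue virus and other ligands, the region over the start held 409 tags in SAHA and 219 in diluent. The log2 ratio was 0.97 (0.73 to 1.21), just short of 2-fold at 1.95. Its width was 2481 bp in SAHA and 1923 bp in diluent, and per kb the log2 ratio was 0.60 (0.36 to 0.84), the highest per kb of the 6 genes. Of all pairs, 5.54% had a ratio per kb as high.

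Clec12a, Clec9a and Clec7a lie in another cluster on chromosome 6, with starts spanning 123 kb. Clec7a, the beta-glucan receptor, held 1377 tags over 4850 bp in SAHA and 807 tags over 2781 bp in diluent. The log2 ratio of tags was 0.84 (0.71 to 0.96), while the density was 284 tags per kb in SAHA and 290 in diluent, a log2 ratio of 0.03 (-0.09 to 0.16). At Clec7a the libraries thus differed in how much DNA the region covered, and a difference in density was not detectable at this depth.

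Clec12a, the inhibitory receptor, went the other way. Its region over the start held 154 tags in SAHA and 223 in diluent, with nearly equal widths of 1963 bp in SAHA and 2051 bp in diluent. The log2 ratio was -0.47 (-0.77 to -0.17), and -0.41 (-0.71 to -0.10) per kb. Of all pairs, 5.73% had a ratio as low. SAHA had 1 more small region at this gene, 775 bp wide and 0.303 kb upstream of the start, so that the SAHA regions covered 3344 bp and the diluent regions 2610 bp.

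Clec9a, a marker of cross-presenting dendritic cells, had no H3K4me3 region over its listed start. All of its regions lay upstream, the nearest 881 bp away in SAHA and 861 bp away in diluent. That nearest region held 117 tags in SAHA and 89 in diluent, a log2 ratio of 0.46 (0.05 to 0.87) and of 0.33 per kb (-0.08 to 0.75). The counted regions near the start held 226 tags over 3878 bp in SAHA and 156 tags over 2842 bp in diluent, a log2 ratio of 0.15 per kb. A diluent region of 777 bp, inside a counted SAHA region, had no tag count, so these sums do not cover the same DNA. Clec9a had the fewest tags of the 6 paired genes in either library, so its interval is wide.

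The galactose-type lectin genes Mgl2 and Clec10a lie side by side on chromosome 11, with starts 36.4 kb apart. At Mgl2, which encodes a receptor for N-acetylgalactosamine, SAHA had a region at chr11:69942218-69944606, over the start, with 186 tags and a fold enrichment of 8.38. No diluent region was listed within 35.1 kb of it, and over all genes 2.89% had a region in SAHA and none in diluent. The diluent table lists no region with fewer than 16 tags, and a position without a row has no count, so no ratio was computed for Mgl2. Clec10a held 162 tags over 1411 bp in SAHA and 97 tags over 1021 bp in diluent, a log2 ratio of 0.81 (0.43 to 1.18), and 0.34 (-0.03 to 0.72) per kb. The genes are close paralogs, and the sources used here do not say how reads matching both were placed, so the values at both are uncertain.

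Over the 6 paired genes the log2 ratio of tags had a median of 0.82 and ran from -0.47 at Clec12a to 1.55 at Clec4e. Of them 5 had an interval above 0 and 1 had an interval below 0. The median over all 17704 pairs was -0.01 with quartiles of -0.17 and 0.26, and 24.2% of all pairs had an interval above 0 and 24.3% below. Per kb the median was 0.34 over the receptor genes and -0.07 over all pairs. Per kb 2 genes, Clec4e and Clec5a, had intervals above 0, Clec12a had an interval below 0, and 0 of the 6 passed 2-fold, while 0.779% of all pairs passed 2-fold upward and 0.175% downward. Of the 6 regions 5 were wider in SAHA, as were 67.9% of all pairs. Clec4e was the 1 region at least 2-fold wider (2.09-fold), against 1.07% of all pairs, and 0 of 6 were at least 2-fold narrower, against 0.294%.

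**Figure D2:**
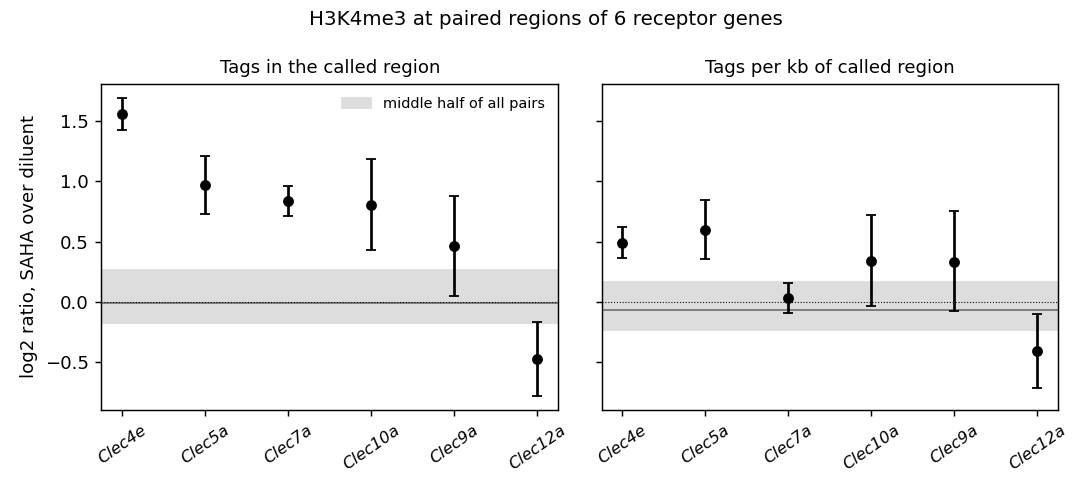
Log2 ratio of H3K4me3 tags, SAHA over diluent, at the paired regions of 6 receptor genes, for tags in the called region (left) and for tags per kb (right); points are single library pairs and bars exact 95% counting intervals. The grey band spans the quartiles of all 17704 pairs and the grey line their median; Clec4e lies at 1.55 on the left and 0.49 on the right, and Clec12a lies below 0 on both.

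At Clec4n, Clec4e, Clec7a, Clec4d and, by a smaller amount, Clec5a the wider SAHA region gained more length inside the gene than upstream. At Clec10a it gained slightly more upstream. A region covered the listed start in both libraries at 7 of the receptor genes. Its downstream edge lay 3166 bp further into the gene in SAHA at Clec4n, 2390 bp at Clec4e, 2064 bp at Clec7a and 1524 bp at Clec4d. The difference was 372 bp at Clec5a, 169 bp at Clec10a and -1 bp at Clec12a. Upstream the differences ran from -87 bp at Clec12a to 550 bp at Clec4e, with 221 bp at Clec10a and 186 bp at Clec5a.

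With a limit of 1 kb, chosen after these values were seen, 4 of the 7 genes reached further downstream in SAHA and 0 of 7 further upstream. Over 10932 genes with a region on a start in both libraries, 6.9% reached at least 1 kb further downstream and 1.1% further upstream. Downstream these were 754 genes, so such a reach was not particular to the receptor genes. Genes with regions of similar width were not compared separately. The median difference downstream was 1524 bp at the receptor genes and 104.5 bp over all genes. Of the 4 genes, Clec4n, Clec4d and Clec4e are neighbours and so not independent of each other, and Clec7a lies in the other cluster on chromosome 6. The edge of a region also depends on how the caller joined pieces. With gaps of up to 500 bp closed, the downstream difference was 4377 bp at Clec4e and 2284 bp at Clec4n. The upstream difference at Clec12a was then 964 bp, with a reach of 1077 bp in SAHA and 113 bp in diluent. With that setting 8.09% of the 10932 genes, and again 4 of the 7 receptor genes, reached at least 1 kb further downstream in SAHA.

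**Figure D3:**
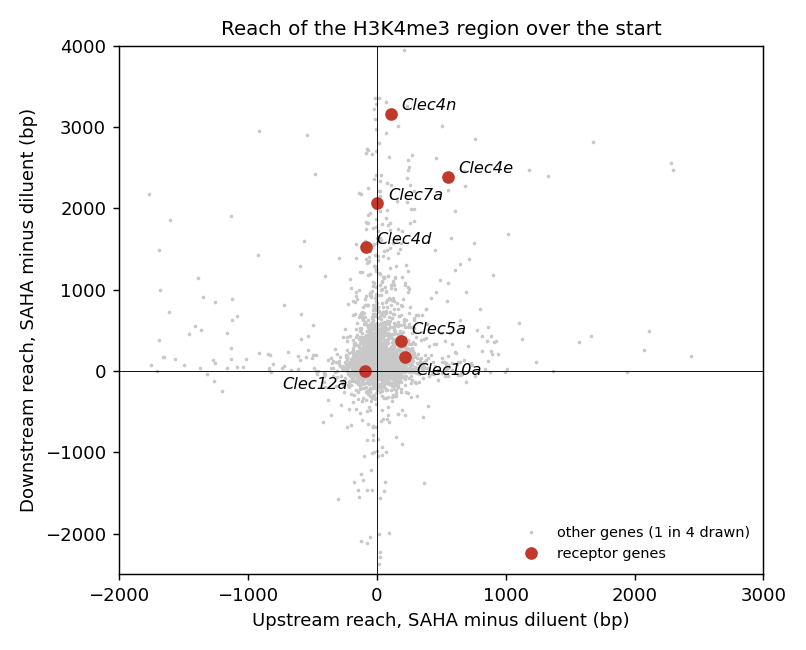
Difference in the reach of the H3K4me3 region over the start, SAHA minus diluent in bp, upstream on the horizontal axis and downstream on the vertical axis, for 7 receptor genes (red) and 1 in 4 of the other genes (grey; 33 of these 2732 lie outside the axes). Clec4n, Clec4e, Clec7a and Clec4d stand between 1524 and 3166 bp downstream and within 550 bp upstream.

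The share of these genes with a STAT3 region lay below that of all genes in SAHA and above it in diluent. In the authors' deposited lists, 2 of the 9 genes carried a STAT3 region in SAHA (Clec4n and Clec5a) and 3 in diluent (Clec4n, Clec7a and Mgl2). By the same rule 38.6% of all genes carried one in SAHA and 17.2% in diluent. Counting only regions within 5 kb of a start, 1 gene had one in SAHA (Clec4n) and 3 in diluent, against 18.4% of all genes in SAHA and 6.38% in diluent. Clec5a had a region in SAHA alone, as 30.2% of all genes did, Clec7a and Mgl2 had one in diluent alone, as 8.8% did, and Clec4n had one in both, as 8.42% did. With 9 genes and 1 library per group, no difference from these shares was tested. None of the 6 regions overlapped an IgG region or a STAT3 region of the other condition. None of the 6 has a region with the same ends among those called without a control, so no tag count exists for them. Regions called without a control numbered 784 in SAHA and 844 in diluent, against 8552 and 3507 in the lists against IgG. Overlap was rare in the whole lists too, at 2.76% of the SAHA regions and 6.67% of the diluent regions.

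Clec4n was the gene with STAT3 regions in both conditions. In SAHA the region, chr6:123179743-123180361, lay over the start, inside the wide H3K4me3 region. In diluent the nearer region, chr6:123177217-123178612, ended 1249 bp upstream of the start, 1131 bp from the SAHA region, and overlapped the small upstream H3K4me3 region that the SAHA list lacks. A further diluent region lay 21.8 kb upstream of Clec4n. In the authors' deposited table the score was 31.57 for the SAHA region, near the lowest value of 30 in that list, and 67.61 for the nearer diluent region, rank 87 of 3507.

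At Clec7a the diluent STAT3 region, chr6:129418454-129419348, lay 3.45 kb into the gene and scored 35.3 in the authors' deposited table. It overlapped no H3K4me3 region in diluent, the nearest being 1051 bp away, and it fell inside the stretch that the H3K4me3 region covered in SAHA. At Mgl2 the diluent STAT3 region, chr11:69939815-69940472, lay 3.39 kb upstream of the start, with a score of 30.25 in the authors' deposited table, and 1746 bp from the H3K4me3 region of the SAHA library. The SAHA region assigned to Clec5a lay 9.94 kb upstream with a score of 30.56 in the authors' deposited table. The scores at Mgl2 and Clec5a lay near the lowest value of 30 in their lists, at ranks 3366 of 3507 and 7862 of 8552. The other 5 genes with a start, Clec4d, Clec4e, Clec9a, Clec10a and Clec12a, had no STAT3 region in either list.

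**Figure D4:**
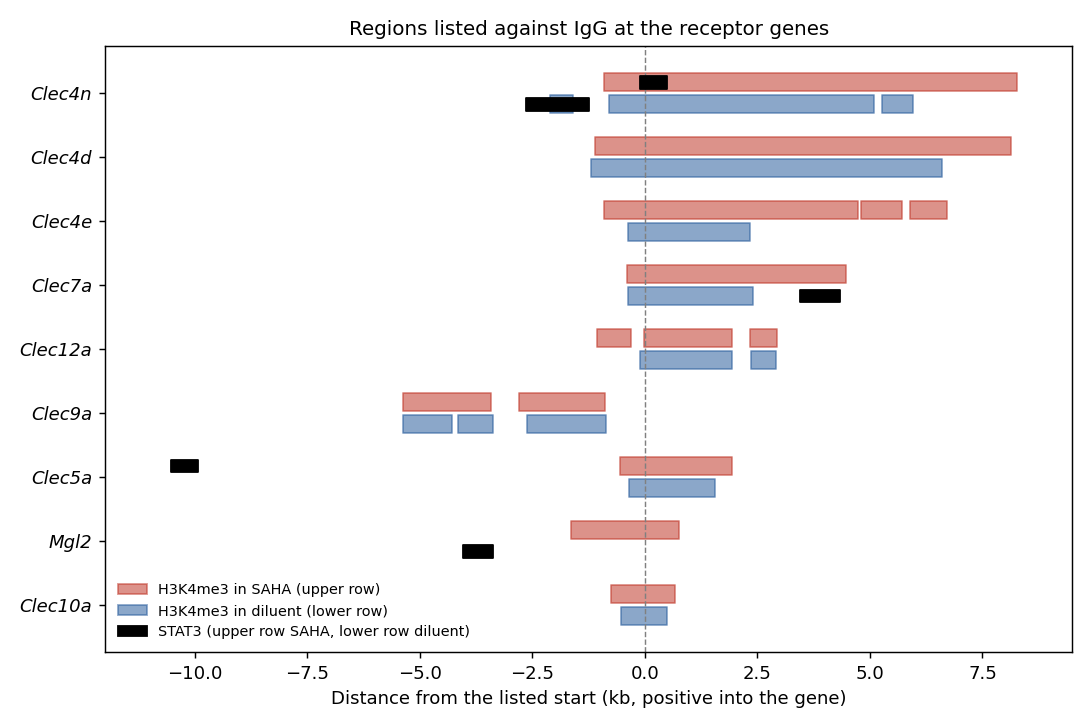
Regions listed against IgG at 9 receptor genes, by distance from the listed start in kb, positive into the gene; for each gene the upper row is SAHA and the lower row diluent, with H3K4me3 in colour and STAT3 in black. The SAHA H3K4me3 regions extend further right at Clec4n, Clec4d, Clec4e and Clec7a; the diluent STAT3 region 21.8 kb upstream of Clec4n lies outside the axis.

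Among genes through which these receptors signal, every one carried H3K4me3 in both conditions, 27 of 27, against 88.8% of all genes. STAT3 regions were assigned to or near 16 of 27 in SAHA and 7 of 27 in diluent, against 38.6% of all genes in SAHA and 17.2% in diluent. In both conditions 6 genes had them: Syk, Hcst, Vav3, Map3k7, Rel and Egr3. Many of these regions lay far from a start. The diluent regions lay 825 kb away at Map3k7, 51.1 kb at Vav3 and 15.6 kb at Rel. The nearest SAHA regions lay 86.3 kb away at Vav3 and 18.6 kb at Rel, while 1 at Map3k7 covered the start. Another SAHA region assigned to Map3k7, 769 kb away, overlapped an IgG region. Only at Hcst, which encodes the adaptor DAP10, did the regions of the conditions overlap, and over all genes with STAT3 regions in both 17.9% had such an overlap. Traf6 had one in diluent alone, and the genes with one in SAHA alone included Plcg2, Prkcd, Bcl10, Malt1, Vav1, Inpp5d, Nfkb1, Relb and Nfatc2. Within 5 kb of a start the counts were 9 of 27 in SAHA (among them Syk, Hcst, Prkcd, Bcl10, Vav1, Map3k7, Relb and Egr3) and 2 of 27 in diluent (Hcst and Egr3), against 18.4% of all genes in SAHA and 6.38% in diluent. The difference of the signalling genes from these shares was not tested. At Syk, the kinase that the activating receptors share, the SAHA region lay 266 bp from a start, with a score of 31.63 in the authors' deposited table, and the diluent region 39.2 kb away. Card9, Fcer1g and Tyrobp had no STAT3 region in either list.

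With 1 region taken per gene, H3K4me3 tags at the starts of the signalling genes differed by small amounts, in either direction. Over 19 of the 27 genes, those with a paired region near the start, the median log2 ratio was 0.03, from -0.25 to 0.37. Of them 0 passed 2-fold, against 4.96% of all pairs upward and 1.01% downward. Intervals lay above 0 at 6 and below 0 at 5, against 24.2% and 24.3% of all pairs. A smaller region over a start at Nfkb1, left out of that range, held 28 tags in SAHA and 51 in diluent. Its log2 ratio was -0.80 (-1.52 to -0.11). Fcer1g held 2581 tags in SAHA and 2616 in diluent, a log2 ratio of 0.05, and Card9 held 1148 tags in SAHA and 1105 in diluent, a log2 ratio of 0.12. Other regions assigned to these genes did pass 2-fold, and the share of them that did was not compared with that of all pairs. At Rel, an NF-kB subunit, a region 23264 bp from a start held 230 tags in SAHA and 43 in diluent (log2 2.48), and 1 at 46300 bp held 393 tags in SAHA and 108 in diluent (log2 1.93). Further ones lay 10475 bp from a start at Egr3 (log2 1.41), 9077 bp at Prkcd (1.08) and 31 bp at Nfatc2 (1.03), beside a larger region over that start.

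Among other C-type lectin genes H3K4me3 tags were higher in SAHA at some and lower at others, and their difference from the receptor genes was not tested. Of 30 examined, 19 had a listed start. H3K4me3 marked 17 in SAHA and 16 in diluent, against 91.7% of all genes in SAHA and 90.2% in diluent, with Clec4a4 in SAHA alone. Over 13 of them with a paired region near the start the median log2 ratio was 0.05. It ran from -0.29 (-0.62 to 0.04) at Mrc1, the mannose receptor, to 1.47 at Klrd1 (CD94, which held 61 tags in SAHA and 23 in diluent). Klrd1 was the 1 gene past 2-fold, against 4.96% of all pairs upward. Intervals lay above 0 at 5 of the 13 and below 0 at 2, against 24.2% and 24.3% of all pairs. The 2 below 0 were Clec4a3 at -0.23 (-0.44 to -0.02) and Cd302 at -0.18 (-0.34 to -0.01). Clec2i held 3073 tags in SAHA and 1894 in diluent, a log2 ratio of 0.76 (0.68 to 0.85), and Cd69 held 1781 tags in SAHA and 1180 in diluent, a log2 ratio of 0.66 (0.55 to 0.77). Per kb these ratios were 0.41 at Clec2i and 0.21 at Cd69.

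STAT3 regions lay at 4 of these genes in SAHA (Clec4b2, Clec16a, Clec11a and Ly75) and at 3 in diluent (Clec4a2, Clec4b1 and Ly75), of 19 with a start, against 38.6% of all genes in SAHA and 17.2% in diluent. At Clec11a the SAHA region covered the start, with a score of 49.2 in the authors' deposited table. At Clec4a2, which encodes the inhibitory receptor DCIR, and at Clec4b1, both on chromosome 6, the diluent regions covered the start. At Ly75 (DEC-205, an uptake receptor of dendritic cells) the regions of the conditions did not overlap.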

How the data were processed

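The submitters' processing notes name BWA and mm9. MACS 1.4.0rc2 called each library by itself, per the file headers, with a p-value limit of 1e-05, no control and up to 2 duplicates kept at 1 position. For every region these deposited tables hold the tag count, the fold enrichment (a ratio to the local background) and a score. The authors' deposited lists against IgG hold a score and an assigned gene; the caller settings for these lists are not stated here, and the 1 IgG library is from diluent cells. Tags were read from the single-library row with the same ends as a listed region.

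Symbols were matched to RefSeq names and synonyms (87.4% of 17024), for names only. Ratios were scaled to filtered tags, with exact conditional binomial 95% intervals, and checked on simulated data. Regions were called shared at 1 bp of overlap or more. Every receptor gene is named. Other genes are named where they had a STAT3 region, H3K4me3 in 1 condition alone or a ratio past 2-fold. Fcer1g, Card9, Tyrobp, Mrc1, Clec2i, Cd69, Clec4a3 and Cd302 were chosen after their values were seen. Analyses used Python 3.11.15, numpy 2.4.6 and scipy 1.17.1. Receptor genes and gene lists were chosen with earlier results of these data known. Results for 1 signalling gene are not reported here.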

Additional observations from a re-analysis of the deposited data

Results flagged for a closer look

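The single-library tables hold 3 regions at these genes that the lists against IgG lack, each without an IgG region under it and without a counterpart in the other condition. The H3K4me3 library in SAHA had 25 tags at chr6:40525798-40526443, inside the transcribed span of Clec5a, 9.36 kb from its start. The STAT3 library in SAHA had 23 tags at chr6:129294381-129295090, 5.17 kb from the start of Clec12a and outside its transcribed span. The STAT3 library in diluent had 26 tags at chr6:129313536-129314176, inside Clec12a and 13.3 kb from its start. What set these regions apart from the lists was not tested.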

How the results depend on the processing

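The H3K4me3 counts of 9 genes in SAHA and 8 in diluent stayed within 1.5 times under all other windows, equal list lengths and removal of IgG regions; with regions at or above the median score of their list they were 5 in SAHA and 4 in diluent. STAT3 counts were less stable. In SAHA the 2 genes became 1 within 5 kb only, 1 within 1 kb only, 1 without synonyms, and 0 with scores at or above the median or with lists of equal length. In diluent the 3 genes became 0 within 1 kb only. The median tag ratio (log2 0.82) was 0.34 per kb. The signalling genes with STAT3 regions were 9 in SAHA and 2 in diluent within 5 kb only. The counts within 1 or 10 kb only, the signalling gene counts within 5 kb only, the match without synonyms and the settings for reach were chosen after seeing the data. No paired analysis was possible because each group has 1 library. Of 95 alternatives 15 moved a value and 0 reversed one.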
